A study of Mus musculus with 4 samples.

Results

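Messenger RNA of 8 secreted factors that act on neutrophils and other myeloid cells was followed through cultured mouse mammary tumor cell lines with and without the JNK genes. The factors were taken by gene symbol from a table of 38713 genes. They were the chemokines Cxcl1, Cxcl2, Cxcl3, Cxcl5 and Cxcl15 and the colony-stimulating factors Csf1, Csf2 and Csf3. They were chosen with their values in these same libraries known, so their levels and differences are given as a description, with no test. Of the 8 genes, 7 reached 1 FPKM in at least 2 of the 4 libraries, the minimum for entering the fit over all genes, and Cxcl15 did not. FPKM scales mapped fragments by transcript length and by the total mapped in the library, so levels of different genes can be set side by side.

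All lines came from mammary tumors of C57BL/6 mice that carried Cre recombinase under the Wap promoter and floxed Trp53, the p53 gene. The 2 JNK_WT lines (replicates 1 and 2, labelled p53-/-) had intact JNK genes. The 2 JNK_KO lines (replicates 1 and 3, labelled p53-/- JNK-/-) also carried floxed Mapk8 and Mapk9, which encode JNK1 and JNK2. The Wap promoter is active in mammary epithelium of pregnancy and lactation, and the tumors arose in parous females. Tumors were broken up with collagenase and cultured until a line was established, no treatment was given, and the age of the mice at harvest was not given in the sources used here. Each library is 1 such line, so n = 2 in each group counts lines, and what sets 1 line apart from another cannot be told apart from genotype where the groups are this small.

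ELR chemokines are small secreted proteins named for a glutamate-leucine-arginine motif ahead of their CXC cysteines. In mice they bind the receptor CXCR2 and draw neutrophils out of the blood, and tumor cells of epithelial origin are a known source of them. Colony-stimulating factors govern the next steps: Csf3 (G-CSF) drives the production and release of neutrophils, Csf2 (GM-CSF) that of granulocytes and macrophages, and Csf1 (M-CSF) the survival of macrophages. Transcription of most of these genes is induced through NF-kB, and their mRNAs are short-lived because proteins bound to them recruit the decay machinery.

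The libraries were comparable in summed FPKM, from 775960 to 921595, and low values placed their relative depths between 1 and 1.41. Mapk8 was at 23.9 and 19.1 FPKM in the JNK_WT lines and at 4.3 and 4.27 FPKM in the JNK_KO lines. Mapk9 was at 29.7 and 24.3 FPKM against 12.6 and 8.66 FPKM. Neither mRNA was thus at 0, but both were lower in the JNK_KO lines. By immunoblot the paper detected no JNK protein in JNK_KO tumor cells. Trp53 was between 1.55 and 5.72 FPKM. No gene among 12998 was called between the groups by limma at an adjusted p-value under 0.05 and a log2 difference over 0.75 (0 genes, 0%, lowest limma adjusted p 0.0515), while the unadjusted p of 992 genes (7.63%) was under 0.05. With 2 lines against 2 there are 3 ways to split the libraries, and the smallest p-value of an exact two-sided permutation test is 1 in 3. The epithelial markers Epcam (150.3 to 629.7 FPKM) and Krt8 (278 to 1045 FPKM) were high in every line. The leukocyte marker Ptprc did not exceed 0.0134 FPKM, Itgam lay between 0.0653 and 0.0841 FPKM, and Pecam1 of endothelium did not exceed 0.431 FPKM.

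Cxcl5 was the most abundant chemokine of the set in 3 of the 4 lines. Cxcl5 is an ELR chemokine made mainly by epithelial cells. Its level was 2.29 FPKM in JNK_WT replicate 1, 630.0 FPKM in JNK_WT replicate 2, 1425 FPKM in JNK_KO replicate 1 and 996 FPKM in JNK_KO replicate 3. Both JNK_KO lines thus lay above both JNK_WT lines, and JNK_WT replicate 1 lay apart from all the others. The means were 316 ± 444 FPKM (SD, n = 2) in JNK_WT and 1210.1 ± 303 FPKM (SD, n = 2) in JNK_KO, and the difference of mean log2(FPKM + 1), JNK_KO minus JNK_WT, was 4.71. Without JNK_WT replicate 1 this difference was 0.92, and without JNK_WT replicate 2 it was 8.50. The lower JNK_KO line exceeded the higher JNK_WT line 1.58-fold, whereas the JNK_WT lines differed from each other 275-fold. In the 3 lines with high Cxcl5 its level was matched or exceeded by 0.846%, 0.292% and 0.469% of the 12998 tested genes, and in JNK_WT replicate 1 by 84.8%.

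Cxcl1, also known as KC, is a mouse counterpart of the human GRO chemokines. It was at 5.32 FPKM in JNK_WT replicate 1, 616 FPKM in JNK_WT replicate 2, 227 FPKM in JNK_KO replicate 1 and 229 FPKM in JNK_KO replicate 3. The groups overlapped, since the highest and the lowest of the 4 lines were both JNK_WT. The JNK_WT lines differed 116-fold and the JNK_KO lines 1.01-fold. A gap as wide as that between the JNK_WT lines was found in 0.108% of the tested genes, and for Cxcl5 in 0.0539%. Both genes were chosen with their values known, so these shares are a description and no test. The log2 difference between the group means of Cxcl1 was 1.88. It changed sign with the choice of lines: without JNK_WT replicate 1 it was -1.43, and without JNK_WT replicate 2 it was 5.18.

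Cxcl2 and Cxcl3 were lower in abundance, and each separated the genotypes by a wider margin than Cxcl5. Cxcl2, or MIP-2, had levels of 0.439 and 2.27 FPKM in the JNK_WT lines (replicate 1, then 2) and of 31.1 and 13.3 FPKM in the JNK_KO lines (replicate 1, then 3), the order kept from here on. Cxcl3, a close relative of both Cxcl1 and Cxcl2, was at 1.62 and 19.8 FPKM in the JNK_WT lines and at 134 and 83.8 FPKM in the JNK_KO lines. For both genes the order of the lines was JNK_KO replicate 1, JNK_KO replicate 3, JNK_WT replicate 2 and JNK_WT replicate 1, which is also the order for Cxcl5. The means of Cxcl2 were 1.35 ± 1.29 and 22.2 ± 12.6 FPKM, and those of Cxcl3 were 10.7 ± 12.8 and 109 ± 35.1 FPKM, in JNK_WT and JNK_KO respectively (SD, n = 2 each). The lower JNK_KO line exceeded the higher JNK_WT line 5.86-fold for Cxcl2 and 4.24-fold for Cxcl3. The log2 differences were 3.30 and 3.86, and leaving out each line in turn gave 2.71 to 3.89 for Cxcl2 and 2.36 to 5.35 for Cxcl3. A log2 difference of at least that of Cxcl2 was seen in 84 of the 12998 tested genes (0.646%). Cxcl2 was chosen with this value known, so the share is a description and no test.

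Cxcl15, or lungkine, is a chemokine best known from lung epithelium. It was at 0.0708 and 0.0196 FPKM in the JNK_WT lines and at 0.299 and 0.0882 FPKM in the JNK_KO lines. The estimated reads behind these values stood in the ratio 3.03 to 1 in the JNK_WT lines and 12.02 to 4.98 in the JNK_KO lines, all in units of JNK_WT replicate 2. Such steps may be single reads, and no difference is read from them. A short RNA gene, Gm24322, lies within Cxcl15 and was listed at 0.

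**Figure D1:**
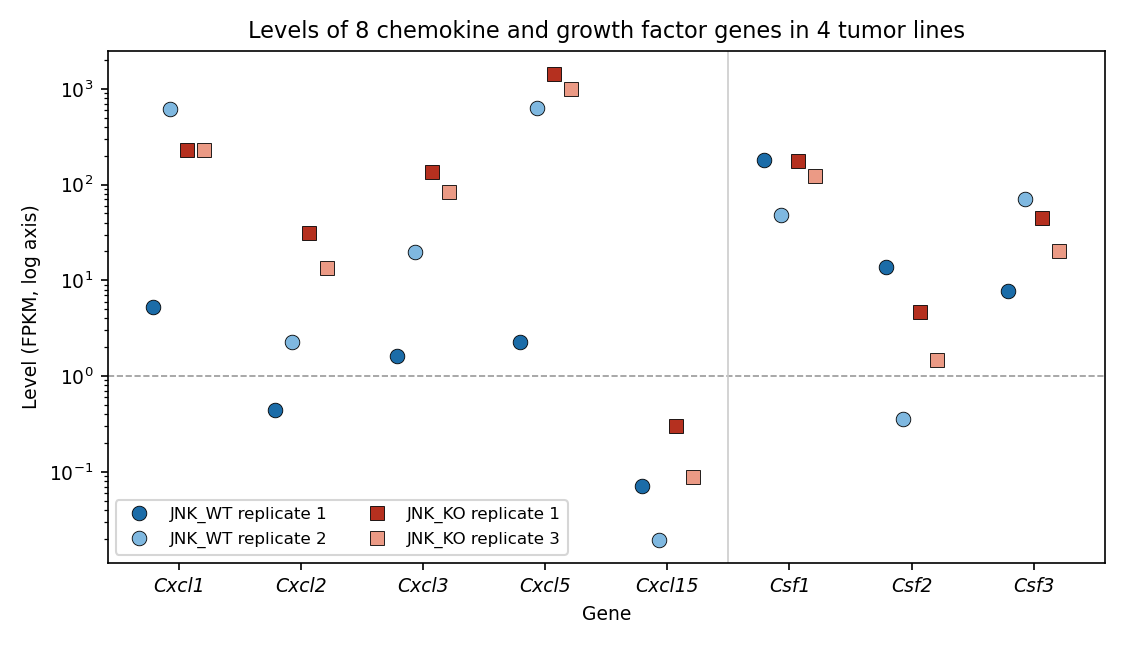
Level of each of the 8 genes in the 4 tumor lines, in FPKM on a log axis, with JNK_WT lines as blue circles and JNK_KO lines as red squares; the dashed line marks 1 FPKM and each point is 1 library. JNK_WT replicate 1 (dark blue) is the lowest line for Cxcl1, Cxcl2, Cxcl3, Cxcl5 and Csf3 and the highest for Csf1 and Csf2.

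Of the 7 genes in the fit, Csf1 had the smallest fold between its highest and lowest line, 3.76. Its level was 182 and 48.3 FPKM in the JNK_WT lines against 175 and 124 FPKM in the JNK_KO lines. The JNK_KO lines fell between the JNK_WT lines, so the groups overlapped. The means were 115 ± 94.2 and 149.7 ± 35.7 FPKM (SD, n = 2 each), with a log2 difference of 0.65. Without JNK_WT replicate 2 the difference was -0.30, and without JNK_WT replicate 1 it was 1.59.

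Csf2 was low in 3 of the lines. It was at 13.8 FPKM in JNK_WT replicate 1, 0.357 FPKM in JNK_WT replicate 2, 4.71 FPKM in JNK_KO replicate 1 and 1.46 FPKM in JNK_KO replicate 3. JNK_WT replicate 1, the line with the least chemokine, had the most Csf2, and the JNK_KO lines again lay between the JNK_WT lines. The log2 difference was -0.26, on means of 7.07 ± 9.50 and 3.09 ± 2.30 FPKM (SD, n = 2 each), and its sign was not stable. It was 1.47 without JNK_WT replicate 1, -1.98 without JNK_WT replicate 2, 0.35 without JNK_KO replicate 3 and 0.12 with 0.1 in place of 1 added to each FPKM. An antisense gene, Gm12223, overlaps Csf2 and was at 2.29, 0.0963, 0.613 and 0.174 FPKM in the same order of lines. The ratio of Csf2 to Gm12223 was between 3.71 and 8.39. Whether the library kit kept strand was not given in the sources used here, so reads from this gene pair cannot be told apart.

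Csf3 was at 7.72 FPKM in JNK_WT replicate 1, 71.4 FPKM in JNK_WT replicate 2, 44.4 FPKM in JNK_KO replicate 1 and 20.0 FPKM in JNK_KO replicate 3. The highest and lowest lines were both JNK_WT, as for Cxcl1. The means were 39.6 ± 45.0 and 32.2 ± 17.2 FPKM (SD, n = 2 each), with a log2 difference of 0.30. The linear means and the log2 means therefore differed in opposite directions. The log2 difference was -1.23 without JNK_WT replicate 1, 1.82 without JNK_WT replicate 2 and -0.26 without JNK_KO replicate 1.

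Of the 7 genes in the fit, Cxcl2, Cxcl3 and Cxcl5 (42.9%) were higher in both JNK_KO lines than in both JNK_WT lines with a log2 difference over 0.75, and none was lower, and over all 12998 tested genes 7.18% were higher and 4.96% were lower by the same rule. The median log2 difference of the 7 genes was 1.88, beside 0.013 over all tested genes. The genes were selected on these differences, so the counts carry no weight as evidence of a shared direction. Both counts changed when either JNK_WT line was left out, but with 1 line left in a group non-overlap is easier to reach for any gene.

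**Figure D2:**
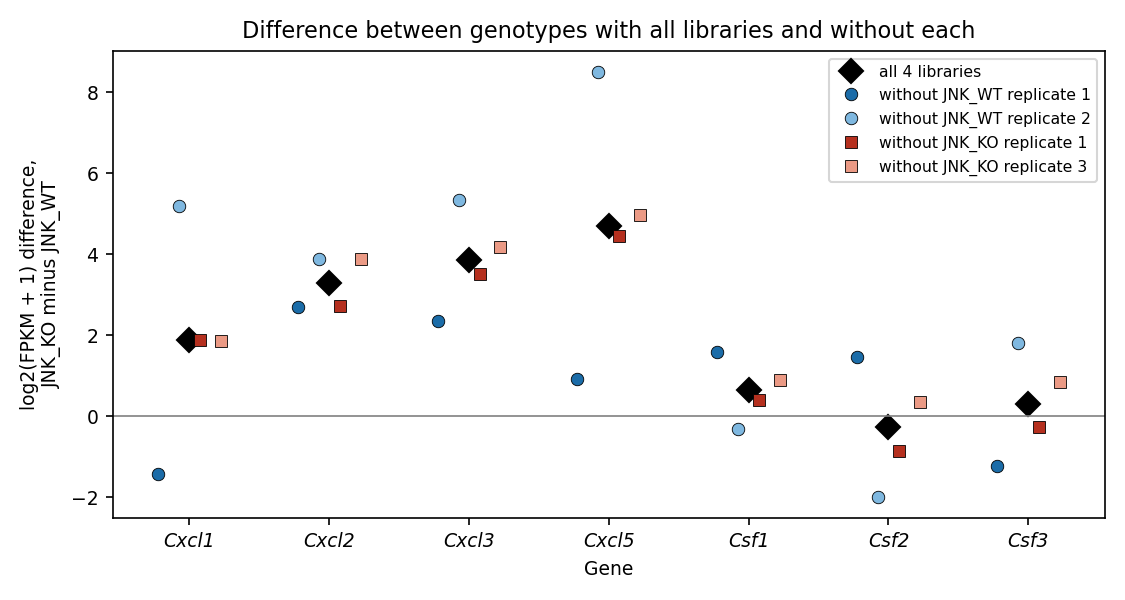
Difference of mean log2(FPKM + 1), JNK_KO minus JNK_WT, for the 7 genes in the fit, with all 4 libraries (black diamonds) and with each library left out in turn (coloured points). Cxcl2, Cxcl3 and Cxcl5 stay above 0 in every case, from 0.92 to 8.50 for Cxcl5, and the other 4 genes cross 0.

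The chemokine mixture was alike in the 2 JNK_KO lines and differed from that of the JNK_WT lines, which also differed from each other. The shares of JNK_WT replicate 1 rest on a small sum. The 5 ELR chemokines summed to 9.73 FPKM in JNK_WT replicate 1, 1268 FPKM in JNK_WT replicate 2, 1816 FPKM in JNK_KO replicate 1 and 1322 FPKM in JNK_KO replicate 3. Cxcl5 made up 23.6% and 49.7% of this sum in the JNK_WT lines and 78.4% and 75.3% in the JNK_KO lines. Cxcl1 made up 54.6% and 48.6% in the JNK_WT lines and 12.5% and 17.4% in the JNK_KO lines. The share of Cxcl5 was therefore above the share of Cxcl1 by a wide margin in both JNK_KO lines, below it in JNK_WT replicate 1 and about equal to it in JNK_WT replicate 2. The ratio of Cxcl5 to Cxcl1 was 0.431 and 1.02 in the JNK_WT lines and 6.28 and 4.34 in the JNK_KO lines. Cxcl3 took 1.56% of the sum in JNK_WT replicate 2 and 6.34% to 16.6% in the other lines, and Cxcl2 took 0.179% to 4.51%.

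**Figure D3:**
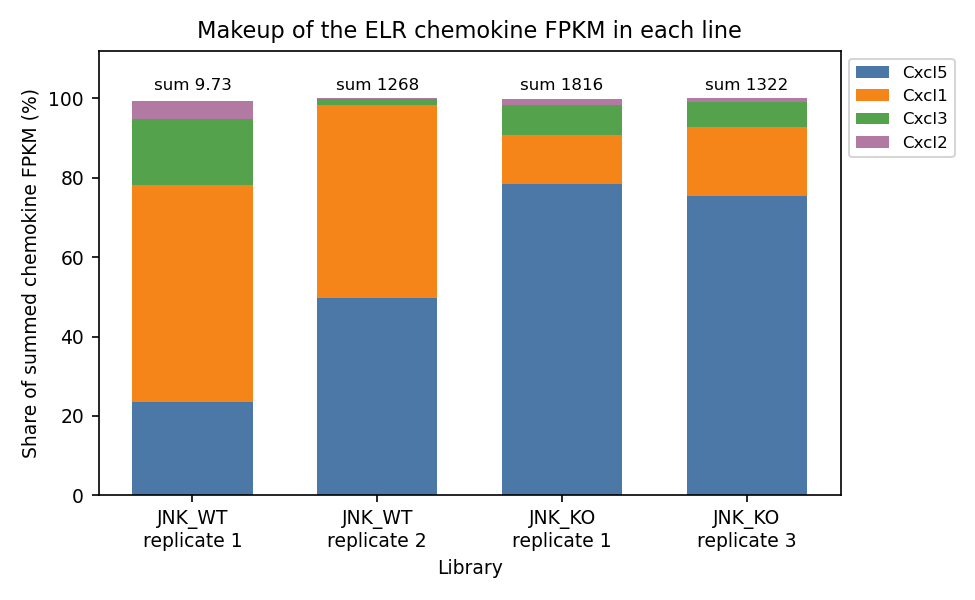
Share of each of 4 ELR chemokines in the summed FPKM of the 5 ELR chemokines, in percent, with 1 bar per library and the sum in FPKM above it; Cxcl15, under 1 FPKM in every line, is part of the sum but not drawn. Cxcl5 takes over 75% of the sum in both JNK_KO lines and under 50% in both JNK_WT lines.

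The order of the 8 genes by level was the same in the 2 JNK_KO lines: Cxcl5, Cxcl1, Csf1, Cxcl3, Csf3, Cxcl2, Csf2 and Cxcl15. In JNK_WT replicate 2 the order began with Cxcl5, Cxcl1, Csf3 and Csf1, with the levels of Cxcl5 and Cxcl1 close to each other. In JNK_WT replicate 1 the colony-stimulating factors came first, in the order Csf1, Csf2 and Csf3, and each was above every chemokine. Csf1 was 89.4% of the summed FPKM of the 3 colony-stimulating factors in that line, 40.2% in JNK_WT replicate 2 and 78.1% and 85.3% in the JNK_KO lines. The ratio of Cxcl5 to Csf1 was 0.0126 in JNK_WT replicate 1, 13.0 in JNK_WT replicate 2 and 8.14 and 8.0 in the JNK_KO lines. The ratio of Csf3 to Csf2 ran the same way, at 0.560 and 199.7 in the JNK_WT lines and 9.42 and 13.7 in the JNK_KO lines.

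The 5 ELR chemokine genes lie in 1 cluster on chromosome 5 of the mouse genome (GRCm38, GENCODE M21), all on the plus strand and spanning 146.6 kb. Cxcl5 (chr5:90759360-90761624) comes first, followed by Cxcl3 (chr5:90786103-90789600), Cxcl15 (chr5:90794534-90803067), Cxcl1 (chr5:90891241-90893115) and Cxcl2 (chr5:90903871-90905938). Ppbp and Pf4, the platelet ELR and platelet factor genes, sit between Cxcl5 and Cxcl3. Ppbp was at 2.73 and 1.83 FPKM in the JNK_WT lines and 3.09 and 1.16 FPKM in the JNK_KO lines, and Pf4 did not exceed 0.104 FPKM. Both thus differed in pattern from Cxcl5, their neighbor. Within 500 kb on either side of the cluster, 7 tested protein-coding genes were present, 3 with a higher and 4 with a lower mean log2 level in JNK_KO, with a median log2 difference of -0.11. None of these 7 genes differed by over 0.75 without overlap in either direction, and the nearest on each side, Rassf6 and Mthfd2l, were between 6.85 and 16.8 FPKM in all lines.

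**Figure D4:**
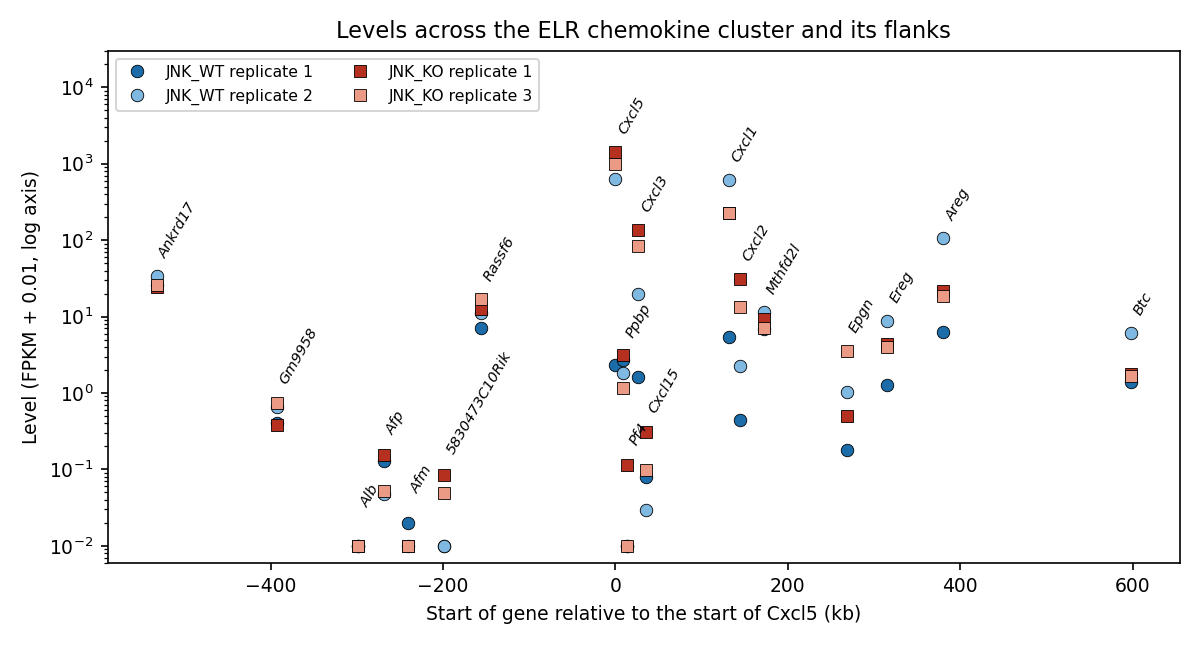
Level of protein-coding genes in and around the ELR chemokine cluster in each line, in FPKM + 0.01 on a log axis, by distance of the annotated gene start from that of Cxcl5 in kb; a point at the bottom is a value of 0. The flanking genes Rassf6 and Mthfd2l vary from 6.85 to 16.8 FPKM over the 4 lines, while Cxcl5 spans 2.29 to 1425 FPKM.

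Csf1 (chr3:107741048-107760469, minus strand) lies on chromosome 3. Csf2 (chr11:54247271-54249667, minus strand) and Csf3 (chr11:98701263-98703629, plus strand) are both on chromosome 11, far from each other.

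Promoter sequences from RefSeq (GRCm38.p6) were matched for 6 of the 8 genes, all but Cxcl5 and Csf3. The 180 bases before the RefSeq start of the 4 promoters with a kB match, the binding sequence of NF-kB, are shown, 5′ to 3′ on the strand of the gene, because 3 of them belong to the linked chemokines. Capitals mark the kB match, and the windows of Cxcl1 and Cxcl2 run past the GENCODE start.
Cxcl3, chr5:90785921-90786100, plus strand: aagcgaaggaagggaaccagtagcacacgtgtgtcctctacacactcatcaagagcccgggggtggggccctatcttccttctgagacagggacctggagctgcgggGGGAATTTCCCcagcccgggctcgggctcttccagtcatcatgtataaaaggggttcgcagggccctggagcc
Cxcl1, chr5:90891065-90891244, plus strand: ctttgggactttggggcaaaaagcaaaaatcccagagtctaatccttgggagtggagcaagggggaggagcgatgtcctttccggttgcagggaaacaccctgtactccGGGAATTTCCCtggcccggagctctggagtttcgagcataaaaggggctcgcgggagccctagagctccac
Cxcl2, chr5:90903719-90903898, plus strand: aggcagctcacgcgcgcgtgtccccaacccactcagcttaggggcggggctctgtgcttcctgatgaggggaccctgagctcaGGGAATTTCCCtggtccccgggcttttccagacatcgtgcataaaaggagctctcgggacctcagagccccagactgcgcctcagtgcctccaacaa
Csf1, chr3:107760470-107760649, minus strand: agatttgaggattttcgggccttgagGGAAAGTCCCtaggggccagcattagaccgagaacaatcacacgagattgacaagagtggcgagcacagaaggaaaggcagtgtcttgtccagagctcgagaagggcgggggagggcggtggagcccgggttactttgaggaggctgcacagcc

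The chemokine promoters share the 11-base run GGGAATTTCCC. Counted from -1 for the base just before the RefSeq start, it lies at -73 to -63 in Cxcl3, -71 to -61 in Cxcl1 and -97 to -87 in Cxcl2. The run holds overlapping matches to the kB consensus, 1 on each strand. Downstream of it, after 33, 26 and 29 bases, stands the TATA-type sequence ATAAAAGG. The Csf1 promoter holds the 10-base match GGAAAGTCCC at -154 to -145. For the shares that follow, all promoters and the 6 here were searched over a longer stretch than the bases shown. That stretch began further upstream and ran past the RefSeq start. A kB match on either strand was in 8.46% of all 32851 promoters and in 4 of the 6 promoters here, and ATAAAAGG was in 1.76% and in 3. The AP1 sequence TGANTCA was in none of the 6 and in 7.81% of all promoters, and the C/EBP sequence TTGCNNAA was in that of Csf2 and in 10.8% of all promoters. The CK-1 element, known from cytokine promoters, was in none of the 6 and in 0.773% of all promoters. For Csf2 the GENCODE start lies 232 bases downstream of the RefSeq start, so its window lies wholly upstream of the bases next to the GENCODE start, which were not searched. A match describes letters in the window and is not a bound site, and Cxcl1, with the same 11-base run as Cxcl2 and Cxcl3, had overlapping groups.

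The rest of the pathway was taken from 9 lists of receptors, inducers, transcription factors, mRNA decay factors and proteases, with 104 genes of which 80 were tested. None was called (0 genes, limma adjusted p-values from 0.299 to 0.999). For 13 the unadjusted limma p was under 0.05, beside 7.63% of all tested genes. The log2 difference was positive for 58 genes and negative for 22. By the rule of 0.75 without overlap, 20 genes (25.0%) were higher and 2 were lower in JNK_KO, beside 7.18% and 4.96% of all tested genes. The lists were chosen with earlier results of these data known, so these counts carry no weight as evidence of a shared direction. The median log2 difference was 0.37, beside 0.013 over all tested genes. Both counts changed with the line left out. With 1 line left in a group non-overlap is easier to reach, and no share over all tested genes was computed for those cases.

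Of the 8 receptor genes, Csf2ra and Csf1r reached 1 FPKM in enough lines to be tested, and the neutrophil receptors were near 0. Cxcr1 was listed at 0 in every line, Cxcr2, the receptor for the ELR chemokines, did not exceed 0.143 FPKM, and Csf3r, the G-CSF receptor, did not exceed 0.0476 FPKM. Ackr1, a decoy receptor that binds these chemokines, reached 0.405 FPKM in JNK_KO replicate 3. Csf1r, the receptor of Csf1, was between 0.312 and 1.82 FPKM. Csf2ra, the GM-CSF receptor subunit, was at 7.34 and 2.64 FPKM in the JNK_WT lines and 2.01 and 1.99 FPKM in the JNK_KO lines (log2 difference -0.88, SE 0.496, limma adjusted p = 0.845). Its partner Csf2rb was at 0.0207 and 0.00344 FPKM in the JNK_WT lines and at 0.114 and 6.19 FPKM in the JNK_KO lines, and Csf2rb2 reached 0.874 FPKM in JNK_KO replicate 3.

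Chemokines of other classes and related cytokines were also higher in the JNK_KO lines in part. Cxcl10, an ELR-negative chemokine that attracts T cells, was at 6.14 and 1.26 FPKM in the JNK_WT lines and 201 and 38.3 FPKM in the JNK_KO lines (log2 difference 4.47, SE 0.994, limma adjusted p = 0.378). Cxcl14 was at 0.272 and 0.106 FPKM against 2.76 and 1.71 FPKM (limma adjusted p = 0.413), while Cxcl12, a chemokine of stromal cells, overlapped between groups. In all, 3 of the 6 tested genes of this list (50.0%) were higher past 0.75 without overlap and none was lower. Of all tested genes 7.18% were higher and 4.96% lower by this rule. Among 6 tested growth factors related to the colony-stimulating factors, Il6 and Il11 (33.3%) were higher by that rule. Il6, which with Csf3 can raise granulocyte numbers, was at 0 and 0.436 FPKM in the JNK_WT lines and 3.86 and 13.0 FPKM in the JNK_KO lines (log2 difference 2.78, limma adjusted p = 0.378). Il11 was at 0.423 and 1.40 FPKM against 4.21 and 6.61 FPKM (limma adjusted p = 0.426).

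Signals that switch these genes on were examined next, with 13 tested of 19 listed. Tlr2, a receptor for bacterial lipoproteins, was at 1.62 and 4.40 FPKM in the JNK_WT lines and 13.3 and 27.5 FPKM in the JNK_KO lines, with limma adjusted p = 0.401. Il1r1, the receptor of interleukin-1, was at 0.511 and 5.62 FPKM against 10.7 and 7.70 FPKM (limma adjusted p = 0.763), and Il1a, its ligand, was at 0.444 and 8.25 FPKM against 6.66 and 13.4 FPKM, with overlap. Of this list 4 genes (30.8%) were higher past 0.75 without overlap and none was lower, beside 7.18% and 4.96% of all tested genes. The count of higher genes fell without JNK_WT replicate 1 and rose without each other line. With 1 line left in a group, non-overlap is easier to reach for any gene.

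All 15 genes of the NF-kB list were tested. NF-kB is held in the cytoplasm by inhibitors until a signal frees it, and it induces several of its own components. Of the 15 genes 12 had a positive and 3 a negative log2 difference. Of these genes 9 were higher in both JNK_KO lines (of all tested genes 18.3%) and none was lower in both. Past 0.75 without overlap, 5 (33.3%) were higher, beside 7.18% of all tested genes. Nfkb2, the p100 subunit, was at 29.7 and 25.3 FPKM in the JNK_WT lines and 83.1 and 49.5 FPKM in the JNK_KO lines (log2 difference 1.20, SE 0.336, limma adjusted p = 0.485). Bcl3, a nuclear IkB family member, was at 8.41 and 29.3 FPKM against 48.9 and 35.0 FPKM, and Nfkbie, the inhibitor IkB epsilon, was at 8.90 and 10.9 FPKM against 26.5 and 17.3 FPKM. The limma adjusted p-values of Bcl3 and Nfkbie were 0.772 and 0.543. The count of higher genes was unchanged without each line in turn, and without JNK_WT replicate 2 a lower gene appeared. With 1 line left in a group, non-overlap is easier to reach.

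Of 18 other transcription factors, 2 (11.1%) were higher past 0.75 without overlap and none was lower, beside 7.18% and 4.96% of all tested genes. Cebpd, a C/EBP factor of the acute-phase response, was at 0.915 FPKM in JNK_WT replicate 1, 68.3 FPKM in JNK_WT replicate 2, 55.3 FPKM in JNK_KO replicate 1 and 134 FPKM in JNK_KO replicate 3. This gene, like Cxcl5 and Cxcl1, was low in JNK_WT replicate 1 and high in the other lines, with overlapping groups. Nfatc1, a calcium-regulated factor, was at 7.02 and 3.36 FPKM against 10.4 and 15.9 FPKM (limma adjusted p = 0.634), and Stat3, at 29.1 and 111 FPKM against 86.6 and 122 FPKM, overlapped.

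Of 13 mRNA decay factors, 2 (15.4%) were higher and 1 was lower past 0.75 without overlap, beside 7.18% and 4.96% of all tested genes. Zc3h12a, the RNase Regnase-1, was at 2.80 and 12.4 FPKM in the JNK_WT lines and 18.6 and 14.7 FPKM in the JNK_KO lines (limma adjusted p = 0.816), and its relative Zc3h12c was at 3.69 and 0.256 FPKM against 4.3 and 4.04 FPKM (limma adjusted p = 0.886). Tia1, a translational repressor, was at 49.6 and 45.9 FPKM against 21.6 and 32.5 FPKM (limma adjusted p = 0.626). Of the 6 tested proteases and syndecans, Mmp9, a gelatinase that can process ELR chemokines, was at 14 and 0.516 FPKM against 48.3 and 22.2 FPKM (limma adjusted p = 0.711). Mmp7, a matrilysin that can shed syndecan-1, was at 0.591 and 0.632 FPKM against 3.69 and 5.80 FPKM (limma adjusted p = 0.299), and Sdc1, syndecan-1, at 163 and 343 FPKM against 67.6 and 269 FPKM, overlapped.

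**Figure D5:**
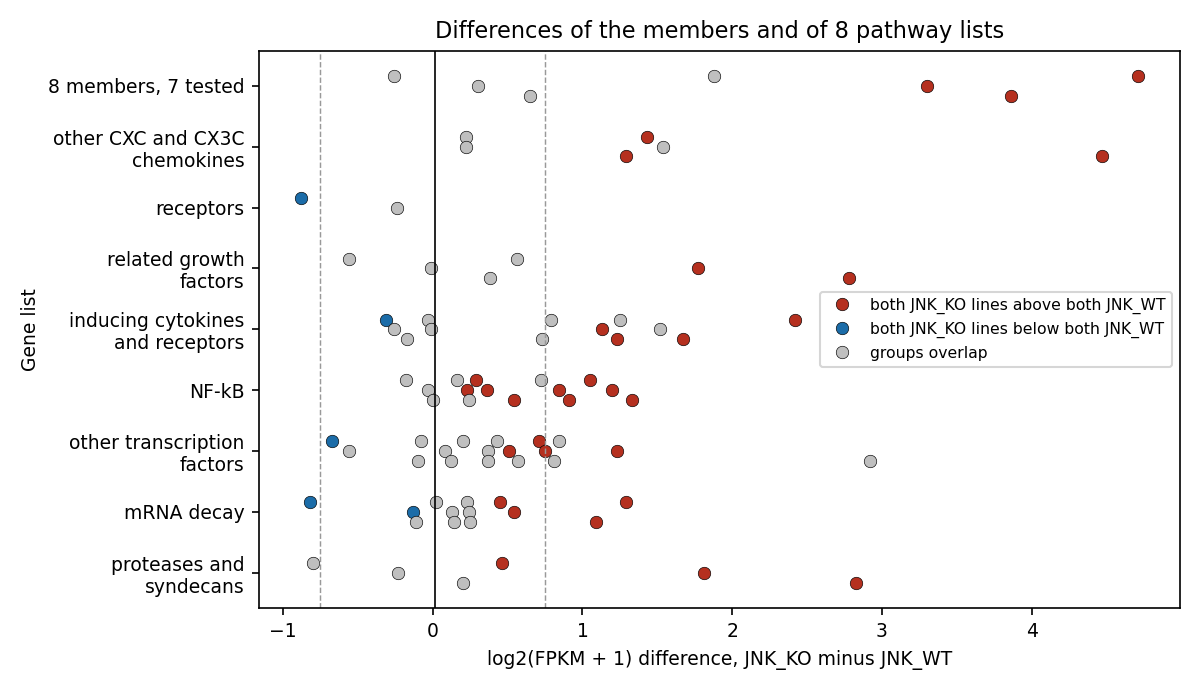
Difference of mean log2(FPKM + 1), JNK_KO minus JNK_WT, for the tested genes of each list, with 1 point per gene, the solid line at the median of all tested genes and dashed lines at 0.75 in each direction. Red points, with both JNK_KO lines above both JNK_WT lines, outnumber blue points, 29 to 5, over the 80 tested pathway genes. Of these Ppbp is not drawn. Of all 12998 tested genes, 18.3% were higher and 16.7% lower without overlap. The lists were chosen with earlier results of these data known, so the counts are a description.

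Markers of other cell types were set beside these values. Of the 9 fibroblast markers, 4 were tested. Of these, 3 (Dcn, Pdgfra and Pdgfrb) were higher past 0.75 without overlap in the JNK_KO lines, beside 7.18% of all tested genes. The other, Col1a2, overlapped, at 10.3 and 0.374 FPKM in the JNK_WT lines and 0.698 and 2.56 FPKM in the JNK_KO lines (log2 difference -0.68). All 9 markers together summed to 12.0 and 1.78 FPKM in the JNK_WT lines and 108 and 178 FPKM in the JNK_KO lines. Dcn alone was at 0.430 and 0.389 FPKM against 79.7 and 162 FPKM (limma adjusted p = 0.0554), whereas Col1a1 was between 0.374 and 0.527 FPKM in all lines and Lum was listed at 0 in 3 lines. The part of this list in the chemokine result was not tested. Of 11 neutrophil markers, 2 were tested. S100a8 was higher in the JNK_KO lines, at 11.4 and 8.95 FPKM against 2.73 and 3.52 FPKM. Ltf was at 0.884 and 166 FPKM in the JNK_WT lines and at 3.25 and 83.3 FPKM in the JNK_KO lines. The rest of the list was too low to be tested. S100a9 did not exceed 0.0461 FPKM, Elane was listed at 0, Csf3r did not exceed 0.0476 FPKM and Cxcr2 did not exceed 0.143 FPKM. No difference is read from values this low. The summed level of the neutrophil list was 5.37 and 171 FPKM against 15.4 and 92.9 FPKM, most of it Ltf in JNK_WT replicate 2 and JNK_KO replicate 3. Among 10 macrophage markers, 3 were tested, and Cd14 was the highest at 11.9 and 233 FPKM against 125 and 139.7 FPKM. All 10 summed to 34.2 and 237 FPKM against 131 and 152 FPKM, and Cd14, like Cxcl1 and Cxcl5, was lowest in JNK_WT replicate 1. In the same list Ptprc did not exceed 0.0134 FPKM, Adgre1 0.0137 FPKM and Itgam 0.0841 FPKM. The 9 markers of T, B and mast cells summed to 0.186 to 5.52 FPKM, with Kit at 5.52 FPKM in JNK_WT replicate 2. The 6 endothelial markers summed to 0.209 to 0.871 FPKM and none was tested. The 12 luminal markers summed to 5016 and 3956 FPKM against 1849.6 and 3568 FPKM, and the 8 basal markers, led by Krt14, to 26.0 and 733 FPKM against 38.2 and 376 FPKM. Since each library is a culture, fewer cells of a type and less RNA per cell cannot be told apart.

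Genes whose profile across the 4 libraries was closest to that of each factor were found by Euclidean distance of log2(FPKM + 1), each gene centred on its own mean. This was done for the 6 factors in the fit with a range of at least 2 on the log2 scale, all but Csf1. For Cxcl2 the nearest were Icam1 (distance 0.46), an adhesion molecule for leukocytes, Mmp3 (0.55), a stromelysin, and Slco3a1 (0.58). Icam1 was at 0.770 and 1.56 FPKM in the JNK_WT lines and 32.3 and 13.6 FPKM in the JNK_KO lines, and Mmp3 was at 2.09 and 8.15 FPKM against 51.2 and 28.7 FPKM. For Cxcl3 the nearest were Hhip (0.76), an inhibitor of Hedgehog signaling, Gm25128 (1.07) and the chemokine Ccl9 (1.17), the last at 2.93 and 18.9 FPKM against 65.7 and 92.2 FPKM. Cxcl2 ranked 9th of the genes nearest to Cxcl3, and Cxcl3 ranked 85 in nearness to Cxcl2.

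For Cxcl1 the nearest were Gm26457 (0.50), Gm23967 (0.66) and the water channel Aqp1 (0.87), and for Cxcl5 they were mt-Tw (0.89), mt-Tt (1.11) and Mir5130 (1.62). Gm26457, Gm23967 and the 3 genes nearest to Cxcl5 were listed at 0 in JNK_WT replicate 1, as was Gm25128 near Cxcl3. Between the JNK_KO lines Gm26457 and Mir5130 differed 1.41-fold, the ratio of the depths of these lines, as equal read numbers would give. Values of such genes may rest on a few reads, so no shared pattern is read from their nearness. For Csf2 the nearest were Misp (0.21), Morn4 (0.34) and Sema3a (0.34), the last an axon guidance factor at 20.5 and 0.588 FPKM against 5.77 and 2.76 FPKM. For Csf3 they were Atp6v1c2 (0.46), Nxn (0.57) and Ptn (0.59). Of all tested genes Cxcl1 ranked 17, Cxcl3 ranked 24, Cxcl2 ranked 81 and Csf2 ranked 12862 in nearness to Cxcl5. The ranks were not alike in the other direction. Cxcl5 ranked 88 in nearness to Cxcl1, 587 to Cxcl3 and 12507 to Cxcl2. With 4 libraries such distances describe the order and size of 4 values and carry no test.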

How the data were processed

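RNA from 4 cultured mouse mammary tumor lines (2 JNK_WT, 2 JNK_KO, grouped by the sample labels) was sequenced, 1 library per line. The authors trimmed and sampled the reads and mapped them to GRCm38 (mm10) with TopHat2 2.0.14 and Bowtie2, and the deposited values were FPKM from Cufflinks 2.2.1, 1 per gene and library. The submitters' processing notes also name Cuffdiff. The gene annotation and any strand setting were not given in the sources used here. Cufflinks divides by transcript length and shares reads between overlapping genes and close paralogs by an estimate, so Cxcl1, Cxcl2 and Cxcl3, which are similar in sequence, may exchange some reads. The authors sampled reads to a similar number per library, and since read counts per gene could not be had from FPKM for nearly all genes, no counting interval was computed.

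Of 38741 table entries, 27 symbols turned into dates and 1 gene without a value were left out. Genes with at least 1 FPKM in at least 2 of the 4 libraries were fitted on log2(FPKM + 1) with limma 3.58.1 in R 4.3.3 (lmFit, then eBayes with a trend). Tests were two-sided and adjusted by the Benjamini-Hochberg method. Calls needed an adjusted p-value under 0.05 and an absolute log2 difference over 0.75. The added 1 makes the difference of a low gene smaller than its fold change. The fit was tested on simulated data. FPKM are not counts, so no count model was used. Summaries were made with Python 3.11.15 and pandas 2.3.3, and figures with matplotlib 3.10.9. Promoters came from RefSeq (GRCm38.p6).

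The 8 genes and the pathway and marker lists were chosen with earlier results of these data known. Named are the 8 genes, all 8 receptors, the 3 tested genes of each other pathway list with the largest absolute log2 difference, the 3 nearest profiles of each factor, defining or highest markers, and the targeted genes. Other pseudocounts, filters, scalings and fits without each library were run as alternatives.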

Additional observations from a re-analysis of the deposited data

How the results depend on the processing

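The number of called genes was 0 in the fit as reported, 10 with a pseudocount of 0.1, 14 when it was 0.5 and 14 with eBayes without a trend, and 0 without each replicate, and in none of these was a factor or a pathway gene among them. Cxcl2, at 3.30, was 4.18 with a pseudocount of 0.1, and Csf2, at -0.26, was 0.12 with it. Values without a line ranged from -1.43 to 5.18 for Cxcl1, 2.71 to 3.89 for Cxcl2, 2.36 to 5.35 for Cxcl3, 0.92 to 8.50 for Cxcl5, -0.30 to 1.59 for Csf1, -1.98 to 1.47 for Csf2 and -1.23 to 1.82 for Csf3. Reversals came without JNK_WT replicate 1 for Cxcl1 (-1.43), Csf2 (1.47) and Csf3 (-1.23), without JNK_WT replicate 2 for Csf1 (-0.30), without JNK_KO replicate 1 for Csf3 (-0.26) and without JNK_KO replicate 3 for Csf2 (0.35). Of the factors 3 to 5 were higher and 0 to 2 lower past 0.75 without overlap. Without each line in turn, the pathway count was 21 to 31 higher and 2 to 7 lower. In the same cases the NF-kB count was 5 higher and 0 to 1 lower, and the inducing cytokine count 1 to 8 higher and 0 lower. With all lines, 20 pathway genes were higher and 2 lower in the fit as reported. The higher count was 19 with quantile normalization or upper quartile scaling and 23 with no filter on low values. When genes needed a mean of 5 FPKM, 14 pathway genes were higher and 1 was lower. Alternatives for the pathway lists were chosen after seeing the data. Fold ranges rest on 4 lines, and the cause of the differences between settings was not tested. No paired analysis was possible because number 1 is the sole replicate number in both groups, and no label links it to 1 litter or day.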

Other observations

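Several genes beyond Cxcl2, at the far side of the cluster, encode ligands of the EGF receptor, and these were chosen after their values were seen. Areg, amphiregulin, was at 6.32 and 105 FPKM in the JNK_WT lines and at 21.9 and 18.8 FPKM in the JNK_KO lines. Ereg, epiregulin, was at 1.25 and 8.76 FPKM against 4.41 and 4.02 FPKM, and Btc, betacellulin, was at 1.39 and 6.02 FPKM against 1.76 and 1.67 FPKM. For each of these 3 genes the JNK_WT lines held both the lowest and the highest level, the pattern seen for Cxcl1 and Csf3. Epgn, epigen, was at 0.171 and 1.03 FPKM against 0.494 and 3.57 FPKM. Ankrd17 was the one tested flanking gene with both JNK_KO lines below both JNK_WT lines, at 24.4 and 25.7 FPKM against 25.8 and 33.8 FPKM.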
